A study of Mus musculus with 19 samples.

Results

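Calorie restriction lowers the supply of nutrients that the mTOR pathway senses, and 10 genes of that pathway were followed in the cornea and the conjunctiva of mice on either diet. They were the mTOR kinase itself (*Mtor*), its inhibitory complex (*Tsc1* and *Tsc2*), the stress-induced upstream inhibitors (*Ddit4*, *Sesn1*, *Sesn2* and *Sesn3*) and the brakes on protein synthesis below it (*Eif4ebp1*, *Eif4ebp2* and *Eef2k*). The set was chosen by pathway role around *Eef2k*, which was selected on its higher level under restriction in both tissues of these same libraries. Its values in that contrast are therefore described without a test. All 10 were found in both expression tables, among 24552 listed genes, and all 10 passed the filter on low values in each tissue (a mean of at least 10 normalized counts).

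The C57BL/6 mice either ate freely (ad libitum, AL) or were placed on calorie restriction (CR), with no other genetic or drug treatment in any group. By the study's methods the mice were adult females, CR mice were fed once a day late in the light phase, a mouse could give more than 1 tissue, and the cornea samples were scraped epithelium. Intake was cut gradually and the restriction ran for months. In a cohort of the study the CR chow also held more vitamins and micronutrients than the AL chow. The methods do not say which cohort gave these libraries. The titles carry 6M and 50W for every library, tokens that are not interpreted here. The cornea was represented by 5 libraries of each diet and the conjunctiva by 4 of AL and 5 of CR, named here by diet and the number in their title, and the clock time of collection was not given in the sources used here. The study's legends count the groups in mice, whereas the labels do not name the animal behind each library, and p-values are read as measuring the spread between these libraries. Values are normalized counts recovered from the deposited log2 values, in which the reads of a gene are scaled for library depth within a tissue.

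As background, mTOR complex 1 is a kinase on the lysosome that promotes protein synthesis when amino acids, energy and growth signals are plentiful. TSC1 and TSC2 hold it back by switching off the small GTPase Rheb, and the sestrins and the DDIT4 protein (REDD1) carry amino acid, oxidative and hypoxic stress signals to it. Active mTOR complex 1 phosphorylates the 4E-BP proteins, which releases the cap-binding factor eIF4E for initiation. It also restrains eEF2 kinase, the product of *Eef2k*, which otherwise phosphorylates elongation factor 2 and slows the ribosome. Most of this control acts on protein phosphorylation, which mRNA levels do not measure.

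Library depth was 10354125 to 14681223 counted reads for the cornea and 10726717 to 14433441 for the conjunctiva, and a gene at 0 could have held up to 3 reads, or 2.27 to 3.37 normalized counts, counting error only. Most epithelial markers fitted the labels, though each tissue was normalized apart. The corneal keratin *Krt12* averaged 306448 normalized counts in AL cornea against 3006 in AL conjunctiva, and the goblet cell mucin *Muc5ac* 12.9 against 4515. Of the listed epithelial markers, the corneal *Krt14* (6132 against 13634) and the conjunctival *Krt13* (27224 against 21937) went the other way. The share of listed genes with 0 reads was 40.5% ± 2.70 (SD, n = 5) in AL and 44.4% ± 3.06 (n = 5) in CR cornea (exact two-sided permutation p = 0.0714). It was 35.3% ± 1.90 (n = 4) and 37.1% ± 2.29 (n = 5) in the conjunctiva (exact p = 0.246). Cornea AL 4 (45.2%) lay among the CR libraries in this share and cornea CR 1 (39.9%) among the AL libraries. Cornea AL 1 stood apart in lacrimal gland markers, whose summed level was 35223 there against 106 to 968 in the other AL and 56.7 to 397 in the CR cornea libraries. In the conjunctiva all 6 fibroblast markers averaged lower in CR (summed level 39250 to 58882 in AL, 25864 to 51295 in CR, exact p = 0.0476). All 8 macrophage markers did too (3087 to 4079 in AL, 1981 to 2967 in CR, exact p = 0.00794), and 8 of 11 lacrimal markers (46.6 to 212 in AL, 1.90 to 42.1 in CR, exact p = 0.00794), of which *Mup5* was at 0. In the cornea 7 of 8 macrophage markers were lower (302.5 to 404 in AL, 157 to 309 in CR, exact p = 0.0159). These are bulk samples, in which fewer cells of a type and less RNA per cell cannot be told apart. The part of these differences in the results that follow was not tested, except where a value is given.

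*Eef2k* lies on the plus strand of chromosome 7 (RefSeq, GRCm38.p6, chr7:120842642-120907219). Of its 7408 exonic bases in the GENCODE annotation, 101 are shared with the antisense gene *Gm15774*, and whether reads were counted by strand is unknown. RefSeq promoter windows of the same build, running from 250 bases before to 50 after a transcript start, were held for 9 of the 10 members, all but *Eif4ebp1*, in 12 windows. They were searched on both strands for 4 short motifs: the E-box CACGTG, read by clock and MYC-family factors, the D-box TTANGTAA, read by DBP-family factors, a FOXO motif TGTTTAC and the amino acid response motif TGATGNAA (CARE), read by ATF4. Of 32851 windows in all, 7.15% held the E-box, 2.32% the D-box, 3.65% the FOXO motif and 3.97% the amino acid response motif. *Eef2k* has 3 such windows. The upstream-most held an E-box 31 bases before its start. The RefSeq gene span begins 189 bases upstream of that start, so the E-box lies inside it. In the same scan the window farthest downstream held the amino acid response motif, on the minus strand, 84 bases before its start. The only other match among the members was a FOXO motif 22 bases after a start of *Sesn1*. The matching stretches are shown with the motif in capitals, to let them be read beside the promoters of the genes that followed *Eef2k* most closely.
Eef2k E-box, chr7:120842788-120842817, plus strand: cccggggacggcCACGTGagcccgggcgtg
Eef2k CARE, chr7:120851094-120851123, plus strand: ctttctgcttgTTTCATCAagctcagcttg
Sesn1 FOXO, chr10:41810585-41810613, plus strand: gaaccttctacTGTTTACcagccttttgg
A match describes letters only. The other windows of *Eif4ebp2*, *Ddit4*, *Sesn1*, *Sesn2*, *Sesn3*, *Mtor*, *Tsc1*, *Tsc2* and *Eef2k* held none of the 4 motifs in these 300 bases.

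*Eef2k*, the kinase that slows elongation, was higher in every CR library than in every AL library of the same tissue. In the cornea, AL 1 to AL 5 held 563, 493, 541, 719 and 686 normalized counts. CR 1, CR 2, CR 3, CR 4 and CR 7 held 844, 1350.3, 1289, 847 and 834. CR 2 and CR 3 stood well above the other 3 CR libraries, which lay close together and nearer to AL 4, the highest AL library. The means were 600.4 ± 97.2 (SD, n = 5) and 1033 ± 263 (n = 5), a ratio of 1.72 and a fitted log2 change of 0.76 ± 0.16 (SE).

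In the conjunctiva, *Eef2k* held 602, 458, 545 and 619 normalized counts in AL 1, AL 3, AL 4 and AL 5. It held 936, 875, 875, 970.2 and 992 in CR 1 to CR 5. The CR libraries were tight and the gap to the highest AL library was wide. The means were 556 ± 72.6 (SD, n = 4) and 929.5 ± 53.8 (n = 5), a ratio of 1.67 and a log2 change of 0.75 ± 0.14 (SE). Among all genes tested, a called change (limma, adjusted p under 0.05 and over 1.5-fold) in the higher direction was made for 0.749% in the cornea and 0.223% in the conjunctiva. All CR libraries lay above all AL libraries for 2.08% and 1.92% of genes. These shares stand beside *Eef2k* as a scale only, since it was selected on this contrast.

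**Figure D1:**
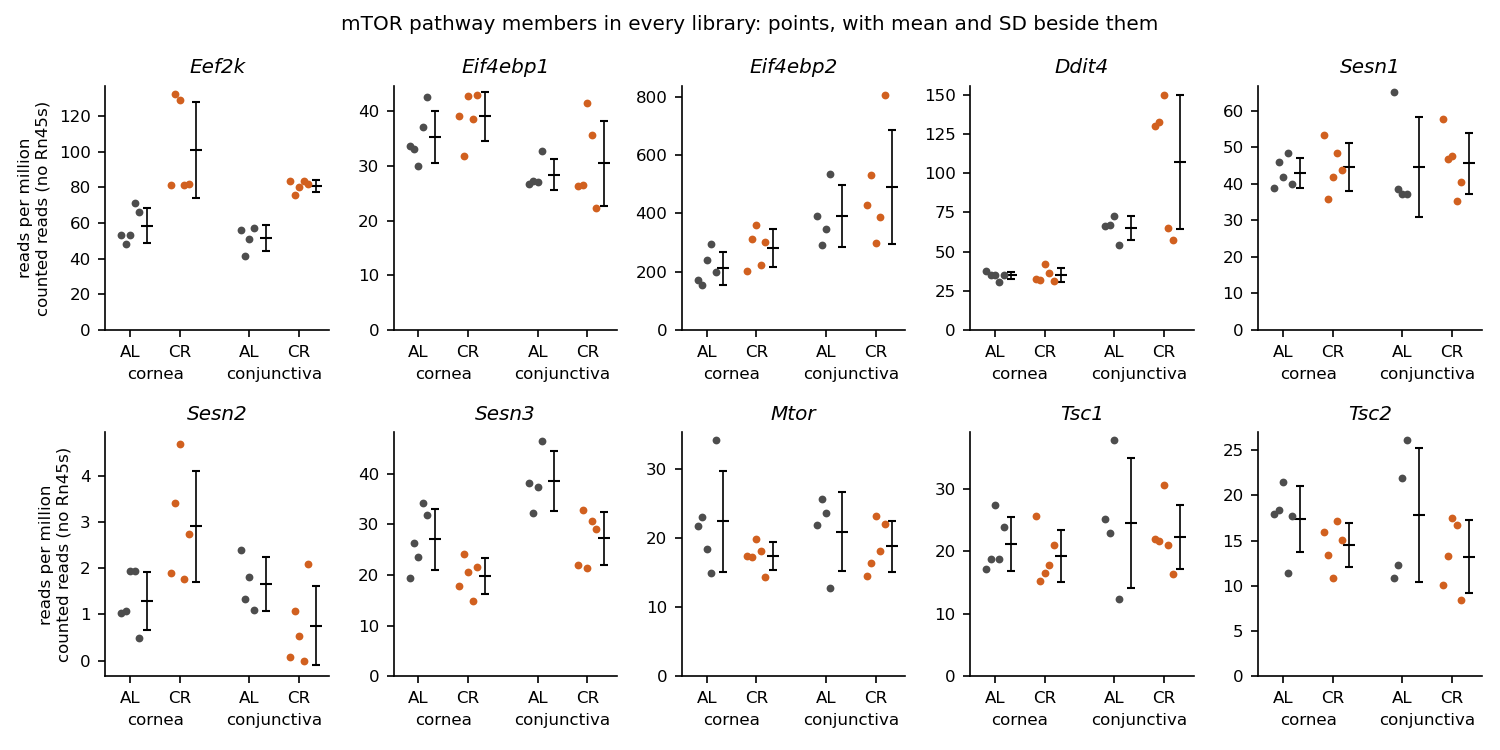
RPM, reads scaled to the counted reads of the library without the ribosomal precursor Rn45s (vertical axis, a separate linear scale for each gene), in every library of the 10 members, by tissue and diet (AL grey, CR orange), with the mean and SD as bars beside the points. Of the 10 members, *Eef2k* alone has AL and CR points that stay apart in each tissue, and the *Ddit4* points of CR conjunctiva fall into 3 high and 2 low libraries.

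Within each diet of the cornea, *Eef2k* was mostly higher in libraries with a larger share of genes at 0, but CR 7 went the other way. AL 4, with the largest AL share (45.2%), had the highest AL level, and CR 2 and CR 3, at 46.1% and 45.6%, had the highest CR levels, whereas CR 7, with the largest share of all (47.6%), had the lowest CR level (834). In the conjunctiva AL 5 (37.9%, level 619) and CR 5 (40.1%, level 992) had both the largest share and the highest level of their diet. There, AL 3 and CR 2 broke the order. Adjusted for the share of genes at 0, the log2 change stood at 0.53 for the cornea and 0.67 for the conjunctiva, beside 0.76 and 0.75 unadjusted. Leaving out each library in turn gave 0.66 to 0.83 in the cornea, with 0.74 without AL 1, 0.83 without AL 4 and 0.82 without CR 1, and 0.66 to 0.80 in the conjunctiva.

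**Figure D2:**
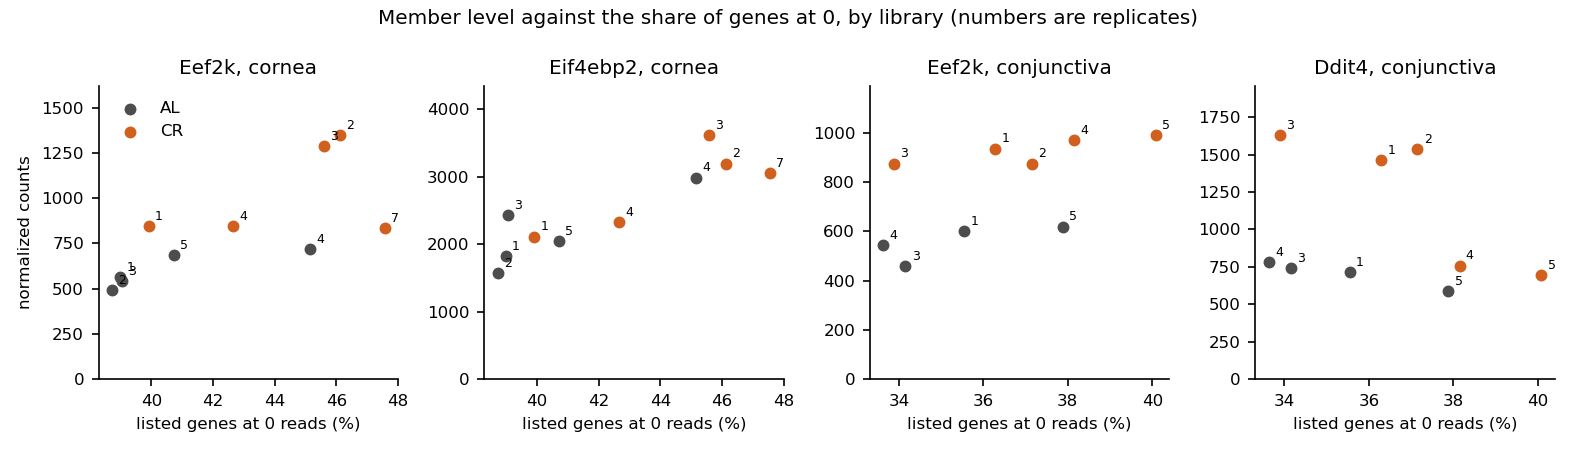
Normalized counts (vertical axis, linear from 0) of *Eef2k* and *Eif4ebp2* in the cornea and of *Eef2k* and *Ddit4* in the conjunctiva, against the percent of listed genes with 0 reads in the same library (AL grey, CR orange, numbers are the replicate numbers of the titles). Cornea CR 7 has the largest share (47.6%) and the lowest *Eef2k* of the CR libraries (834), cornea AL 4 lies among the CR libraries for *Eif4ebp2*, and the conjunctiva CR libraries with the lowest *Ddit4* (CR 4 and CR 5) have the highest shares.

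The 4E-BP genes encode the repressors of cap-dependent initiation that mTOR inactivates. *Eif4ebp2* (chr10:61428491-61452790) averaged higher in CR in both tissues, but the groups overlapped. In the cornea its AL libraries held 1817, 1573, 2432, 2988 and 2046 normalized counts in title order, and its CR libraries 2113, 3194, 3621, 2332 and 3056. AL 4 lay among the CR libraries here, as it did in the share of genes at 0. The log2 change was 0.41 ± 0.18 (SE, limma adjusted p = 0.245) and was 0.030 when adjusted for the share of genes at 0. In the conjunctiva AL libraries held 4190.1, 3202, 3713 and 5799, and CR libraries 4828, 6162, 3251, 4509 and 9781. CR 5 alone was far above the rest, so the CR spread (SD 2502) was wider than the difference of the means (log2 change 0.37 ± 0.28, limma adjusted p = 0.739). The change was 0.15 without CR 5 and -0.014 when adjusted for the share of genes at 0.

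*Eif4ebp1* (chr8:27260327-27275656) held 306 to 440 normalized counts in AL cornea, with a median of 358, and 325 to 437 in CR cornea, with a median of 406. In the conjunctiva AL held 286 to 353 (median 294.5) and CR 272 to 452 (median 307). The groups overlapped in both tissues. Its log2 changes were 0.14 (95% interval -0.15 to 0.44, limma adjusted p = 0.623) in the cornea and 0.16 (-0.24 to 0.55, adjusted p = 0.843) in the conjunctiva. With 1 library left out they ran from 0.083 (without AL 3) to 0.21 (without CR 2) and from 0.055 (without CR 3) to 0.24 (without CR 5).

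*Ddit4* (chr10:59949675-59951770) encodes REDD1, which is induced by stress, glucocorticoids and hypoxia and restrains mTOR complex 1 through TSC2. In the cornea its groups overlapped throughout, at 402, 358, 356, 310 and 366 normalized counts in AL 1 to AL 5, and 337, 327, 422, 377 and 319 in the CR libraries. The log2 change was -0.011 with a 95% interval of -0.30 to 0.27 (limma adjusted p = 0.976). In the conjunctiva AL 1, AL 3, AL 4 and AL 5 held 713, 739.5, 779 and 589, against 1462, 1537, 1632, 758 and 696 in CR 1 to CR 5. CR 1, CR 2 and CR 3 stood at about the same high level and above every AL library, whereas CR 4 and CR 5 lay within the AL range. The means were 705 ± 82.1 (SD, n = 4) and 1217 ± 452 (n = 5), the log2 change was 0.70 ± 0.26 (SE), and the limma adjusted p was 0.386, short of the threshold. CR 4 and CR 5 also had the largest shares of genes at 0 in the conjunctiva, 38.1% and 40.1%. With that share as a covariate the change was 1.02 and passed (limma adjusted p = 0.0159), while over the other alternatives and left-out libraries the adjusted p ran from 0.0601 to 0.634.

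The sestrins bind leucine or respond to oxidative and genotoxic stress and pass the signal to the GATOR complexes and AMPK. *Sesn3* (chr9:14276301-14326134), a FOXO target, averaged lower in CR in both tissues. Cornea AL libraries held 207, 269.8, 240.1, 345 and 329 normalized counts and CR libraries 185, 246, 206, 156 and 219. In the conjunctiva AL libraries held 409, 355, 399 and 503 and CR libraries 246, 381, 233, 357 and 355. No CR library exceeded its AL median in either tissue, yet the groups overlapped. The log2 changes of -0.45 ± 0.18 (SE, limma adjusted p = 0.205) and -0.42 ± 0.19 (adjusted p = 0.499) did not pass.

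*Sesn1* (chr10:41810574-41908436), a p53 and FOXO target, held 413 to 487 normalized counts in AL cornea (median 426) and 367 to 553 in CR cornea (median 446). In the conjunctiva AL 1 held 699 and the other AL libraries 399 to 426, with 411 to 648 in CR. Its log2 changes were 0.039 ± 0.14 (SE, limma adjusted p = 0.908) and 0.14 ± 0.19 (adjusted p = 0.861), and the latter was 0.34 without AL 1.

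*Sesn2* (chr4:132492804-132510456), a leucine sensor and ATF4 target, was near the limit of detection. In the cornea it held 11.0, 10.9, 19.6, 19.5 and 5.15 normalized counts in AL and 19.7, 34.9, 47.0, 18.4 and 27.9 in CR, which are 5 to 62 reads per library. Of the CR libraries 4 lay above every AL library, and the log2 change was 1.15 ± 0.54 (SE, limma adjusted p = 0.271). In the conjunctiva it held 25.7, 14.6, 19.4 and 11.8 in AL and 0.974, 12.4, 5.79, 0 and 25.5 in CR. CR 4 had no read, CR 1 a single read, and CR 5 was level with the highest AL library. The fitted log2 change of -1.74 ± 1.0 (SE, limma adjusted p = 0.618) rests on these near-empty libraries and became -0.70 with a pseudocount of 10. The ratio of the means was 0.499.

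*Mtor* (chr4:148448582-148557685) held 231, 236, 188, 150.3 and 354 normalized counts in AL cornea and 182, 176, 199, 190.1 and 146 in CR cornea. In the conjunctiva it held 235, 283, 253 and 138 in AL and 163, 190.4, 253, 211 and 268 in CR. The AL libraries spread more widely than the CR libraries in both tissues and the ranges overlapped. The log2 changes were -0.32 ± 0.20 (SE, limma adjusted p = 0.416) and -0.040 ± 0.23 (adjusted p = 0.972). The former was -0.16 without AL 5 and -0.46 without AL 4.

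*Tsc1* (chr2:28640993-28691172) and *Tsc2* (chr17:24595816-24632676) encode the partners of the complex that switches off Rheb. *Tsc1* ranged from 183 to 279 normalized counts in AL and 155 to 266 in CR cornea, and from 134 to 403 in AL and 198 to 333 in CR conjunctiva. Its log2 changes were -0.15 (95% interval -0.54 to 0.25, limma adjusted p = 0.714) and 0.024 (-0.54 to 0.58, adjusted p = 0.983). With 1 library left out these ran from -0.26 (without CR 1) to -0.054 (without AL 3) and from -0.27 (without AL 5) to 0.26 (without AL 4). *Tsc2* ranged from 115 to 218 in AL and 109 to 179 in CR cornea, and from 117 to 282 in AL and 102 to 195 in CR conjunctiva. Its log2 changes were -0.26 (-0.69 to 0.18, limma adjusted p = 0.535) and -0.30 (-0.92 to 0.32, adjusted p = 0.799). The cornea value ran from -0.41 (without AL 4) to -0.15 (without CR 3) and was 0.053 when adjusted for the share of genes at 0, and the conjunctiva value ran from -0.51 (without AL 1) to -0.085 (without AL 5). *Tsc2* shares 693 of its 9620 exonic bases with *Pkd1* on the opposite strand, so its counts are less certain.

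**Figure D3:**
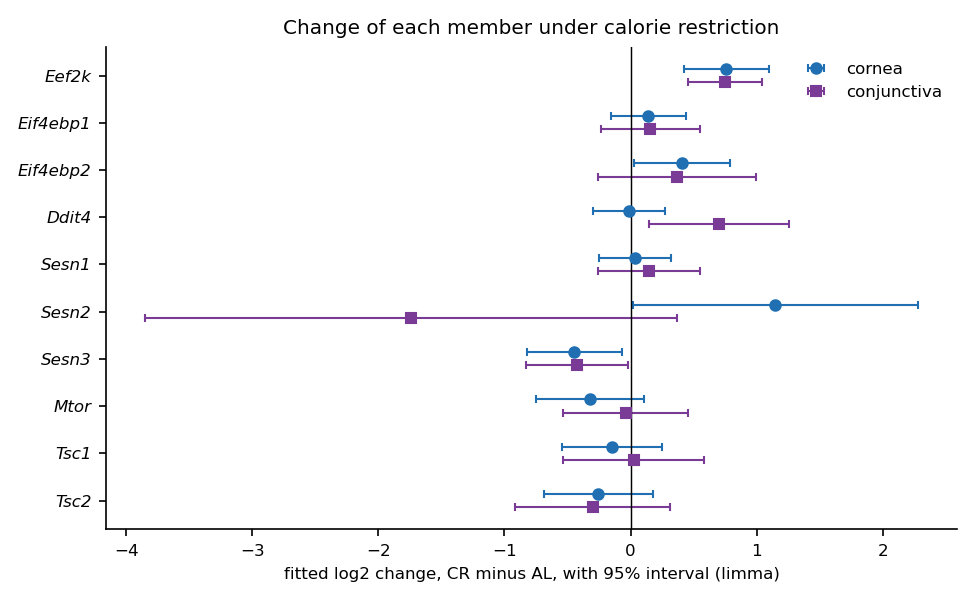
Fitted log2 change, CR minus AL, of each member with its 95% interval (limma; cornea circles, conjunctiva squares). *Eef2k* lies at 0.76 and 0.75, *Sesn3* at -0.45 and -0.42, *Ddit4* at -0.011 in the cornea and 0.70 in the conjunctiva, and the *Sesn2* intervals are the widest. The *Eef2k* intervals are drawn as a scale only and are not a test, since it was selected on this contrast.

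Of the 9 members other than *Eef2k*, 0 passed limma's adjusted threshold in either tissue, where 1.22% of all cornea genes and 0.359% of all conjunctiva genes were called. At an unadjusted p under 0.05 there were 3 in the cornea (*Eif4ebp2* and *Sesn2* higher, *Sesn3* lower) and 2 in the conjunctiva (*Ddit4* higher, *Sesn3* lower), against 18.1% and 9.40% of all genes tested. Limma voom on the recovered reads also gave 0 in each tissue, with 2 and 2 at an unadjusted p under 0.05. None of the 9 had all CR libraries above or all below the AL libraries, against 2.08% and 1.89% of genes in the cornea and 1.92% and 1.95% in the conjunctiva. Their median log2 change stood at -0.011 for the cornea and 0.024 for the conjunctiva, beside -0.027 and -0.016 over all genes tested. In simulated data of the same group sizes, 30 of 50 genes lowered by 2-fold were recovered in the cornea and 24 of 50 in the conjunctiva. Of 50 genes raised by 1.5-fold, 16 and 4 were. Each fold was simulated in a single direction, and genes were drawn independently with no effect shared by a library. These counts are therefore not the power for the 9 members.

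The change under CR was also compared between the tissues, each fitted in its own table and treated as independent, although a mouse could give both. Libraries of the same title in both tissues deviated from their group means with correlations between -0.42 and 0.14. Across the series 0.0168% of the 11929 genes tested differed, and 0 of the 9 members did by this test on the limma fits, with 2 at an unadjusted p under 0.05, against 7.48% of all genes tested. *Ddit4* differed by 0.71 ± 0.29 on the log2 scale, higher in the conjunctiva (adjusted p = 0.614 from the limma fits), and *Sesn2* by -2.89 ± 1.13 (adjusted p = 0.552). For *Sesn3* the fitted changes differed by 0.022 ± 0.26. For *Eef2k* they differed by -0.013, which is a description only, since it was selected on its rise in both tissues.

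Levels in the tissues were set side by side as RPM, the reads of a gene scaled to the counted reads of its library without the ribosomal precursor Rn45s, since each table was normalized apart, and were not tested. *Eef2k* ran in the order AL conjunctiva (51.5 ± 7.15, SD, n = 4), AL cornea (58.4 ± 9.91, n = 5), CR conjunctiva (80.9 ± 3.29, n = 5) and CR cornea (101 ± 26.9, n = 5). The AL groups overlapped each other, as did the CR groups, and no AL library of either tissue reached a CR library. *Eif4ebp2* and *Ddit4* had higher levels in AL conjunctiva (391 ± 105 and 65.2 ± 7.74) than in AL cornea (212 ± 57.3 and 34.8 ± 2.53). *Ddit4* did so without overlap, whereas the *Eif4ebp2* libraries of the tissues overlapped slightly, at 291 to 536 and 154 to 297. *Sesn3* stood at 38.6 ± 5.95 and 27.1 ± 5.99. *Mtor*, *Tsc1*, *Tsc2* and *Sesn1* differed between the AL tissues by less than the SD of either group. No ranking between genes is given, because gene length and an unsettled library type would enter it.

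The wider pathway was read from 8 fixed lists that hold 93 genes, of which 91 were matched. In the cornea 86 were tested and limma called 0, against 1.22% of all genes, with 24 (27.9%) at an unadjusted p under 0.05 (11 higher, 13 lower) beside 18.1% of all genes, and voom also called 0 with 24. In the conjunctiva 90 were tested and 1 was called, higher, against 0.223% of all genes called higher, with 7 (7.78%) at an unadjusted p under 0.05, below the 9.40% of all genes. The median log2 change over the lists stood at 0.058 for the cornea and 0.022 for the conjunctiva, beside the -0.027 and -0.016 of all genes. In the cornea every CR library lay above AL for 2 of the 86 (*Nprl3* and *Cab39*) and below for 2 (*Telo2* and *Eif4a2*). Over all cornea genes tested these shares were 2.08% and 1.89%. In the conjunctiva they were 2 above (*Prr5l* and *Deptor*) and 1 below (*Eif4a2*) of the 90, beside 1.92% and 1.95% of all genes. Genes named below were picked by call or smallest p, which favors groups without overlap. Of the 25 tested genes of amino acid sensing (Rag GTPases, Ragulator, GATOR, KICSTOR and folliculin complexes), 9 (36%) had an unadjusted p under 0.05 in the cornea, 3 higher and 6 lower, and 2 (8%, below the share of all genes) in the conjunctiva. Of 6 elongation factor genes, 3 (50%) had one in the cornea, 1 higher and 2 lower, and 0 in the conjunctiva. *Eef2*, which encodes the target of eEF2 kinase, was not among them, with log2 changes of -0.17 ± 0.13 (SE) in the cornea and 0.11 ± 0.15 in the conjunctiva. Of 16 and 17 genes of the integrated stress response tested, 3 (18.8%, about the share of all genes) and 0 had an unadjusted p under 0.05. No gene of these 3 lists passed the adjusted threshold in either tissue. Of the mTOR complex partners, 1 of 9 (11.1%) had an unadjusted p under 0.05 in the cornea. In the conjunctiva 4 of 10 (40%) did, 3 higher and 1 lower. Of the TSC-Rheb genes, 2 of 3 did in the cornea, both higher, and 0 of 4 in the conjunctiva. For the AMPK, S6 kinase and cap-binding lists it was 1 of 9, 2 of 7 and 3 of 11 in the cornea. In the conjunctiva it was 0 of 10, 0 of 7 and 1 of 11.

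**Figure D4:**
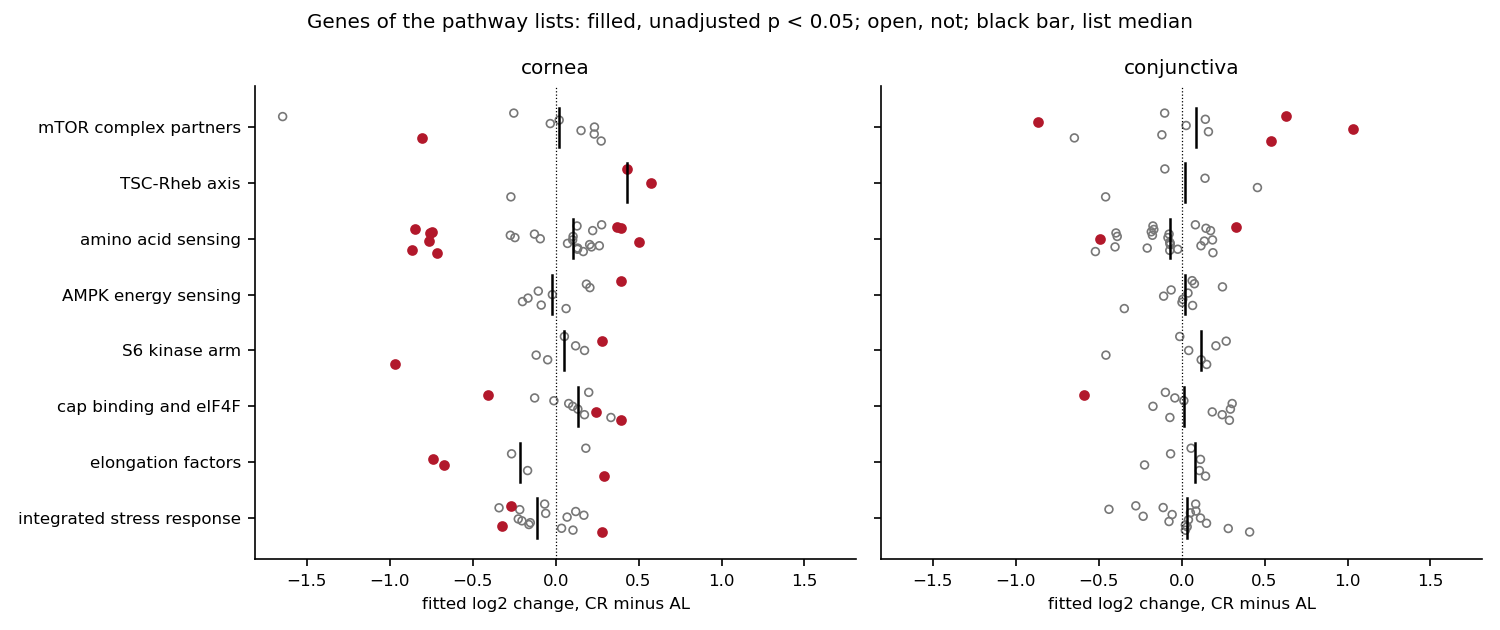
Fitted log2 change, CR minus AL (horizontal axis), of each tested gene of the 8 pathway lists in the cornea (86 genes) and the conjunctiva (90 genes), filled red at an unadjusted p under 0.05 and open otherwise, with the list median as a black bar. Cornea medians run from -0.22 to 0.43 and conjunctiva medians from -0.072 to 0.12, and the filled point farthest right, at 1.03 in the conjunctiva, is *Prr5l*.

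The partners of the mTOR complexes held the only called gene. *Prr5l*, which encodes a partner of mTOR complex 2 (Protor-2), held 198, 272, 160.3 and 173 normalized counts in AL conjunctiva and 400.3, 415, 353, 353.5 and 516 in CR conjunctiva. Every CR library lay above every AL library, and it rose by 1.03 ± 0.19 (SE) on the log2 scale, with a limma adjusted p = 0.0247. The call was lost, at adjusted p from 0.0813 to 0.138, without AL 1, AL 4, AL 5, CR 1 or CR 2, which move the value little (0.94 to 1.04). In the cornea it was low and overlapping, at 40.7 ± 10.3 (SD, n = 5) and 61.2 ± 53.8 (n = 5), with CR 1 at 153 and the other CR libraries at 16.0 to 58.5. The fibroblast and macrophage markers that were lower in CR conjunctiva stand beside this call, and their part in it was not tested.

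*Deptor*, an inhibitory subunit of both complexes, held 477, 504, 396 and 402 normalized counts in AL and 553, 724, 707, 631 and 839 in CR conjunctiva, without overlap (log2 change 0.63 ± 0.16, limma adjusted p = 0.117). In the cornea it held 134, 155, 99.3, 31.8 and 125 in AL and 123, 21.7, 28.0, 62.3 and 4.64 in CR (log2 change -1.65 ± 0.76, adjusted p = 0.281). AL 4 was again with the CR libraries and CR 1 with the AL libraries, as in the share of genes at 0, and with that share as a covariate the change was 0.00062. Skeletal muscle markers, all 6 averaging higher in CR conjunctiva, summed to 10600 to 47298 in AL and 12337 to 105016 in CR there (exact p = 0.413). AL 3 and CR 5 had the lowest muscle sum (10600 and 12337) and the highest *Deptor* (504 and 839) of their diet. CR 3, with the highest sum (105016), held 707. The part of muscle in the *Deptor* values was not tested.

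*Mlst8*, a subunit of both complexes, averaged 265 ± 57.9 (SD, n = 4) in AL and 149 ± 47.6 (n = 5) in CR conjunctiva (log2 change -0.87 ± 0.26, limma adjusted p = 0.235) and stood at -0.033 ± 0.19 in the cornea. The assembly factors of the kinase, *Telo2* and *Tti1*, differed in direction. *Telo2* held 158, 117, 132, 108 and 133 normalized counts in AL and 77.8, 37.7, 101, 79.7 and 88.2 in CR cornea, without overlap (-0.81 ± 0.26, limma adjusted p = 0.124). In the conjunctiva it stood at -0.65 ± 0.34 (adjusted p = 0.582). *Tti1* averaged 177 ± 32.7 and 258 ± 45.7 in the conjunctiva (0.54 ± 0.20, adjusted p = 0.362) and stood at 0.27 ± 0.23 in the cornea.

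*Eif4a2*, which encodes a helicase of the cap-binding complex eIF4F, was lower in every CR library than in every AL library of both tissues. The AL cornea libraries held 397, 383, 430.03, 448 and 372 normalized counts and the CR libraries 304, 334, 345, 344 and 218 (log2 change -0.41 ± 0.15, limma adjusted p = 0.170). The AL conjunctiva libraries held 811, 865, 980.1 and 731 and the CR libraries 615, 633, 711, 470.3 and 421 (-0.59 ± 0.17, adjusted p = 0.204). Neither passed over all genes. *Cab39*, a scaffold of the AMPK-activating kinase LKB1, held 1668 to 2155.9 in AL and 2156.03 to 2902 in CR cornea, adjoining without overlap (0.39 ± 0.11, adjusted p = 0.0785), against 0.063 ± 0.15 in the conjunctiva. *Rheb*, the GTPase that activates mTOR complex 1, averaged 497 ± 64.6 and 677 ± 143 in the cornea (0.43 ± 0.15, adjusted p = 0.160) and stood at 0.14 ± 0.17 in the conjunctiva. *Gatsl2*, an older symbol of the arginine sensor subunit *Castor2*, averaged 102 ± 42.4 and 55.2 ± 18.9 in the cornea (-0.85 ± 0.31, adjusted p = 0.176). In the conjunctiva it averaged 94.5 ± 18.4 and 93.2 ± 47.9 (-0.17 ± 0.36, adjusted p = 0.920).

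The genes whose levels followed *Eef2k* most closely were ranked by the mean of the Pearson correlations of log2 values over the 10 cornea and the 9 conjunctiva libraries, across 11928 genes tested in both tissues. The 5 at the top were *Fam76a* (r = 0.94 in the cornea and 0.93 in the conjunctiva), *Slc6a6* (0.89 and 0.96), *Sec22c* (0.83 and 0.98), *Nr1d1* (0.88 and 0.92) and *Coq10b* (0.89 and 0.91). These are descriptions, since the points share their diet groups and library depths. With the diet means removed, r was 0.82 and 0.86 for *Fam76a*, 0.66 and 0.90 for *Sec22c* and 0.46 to 0.69 for the other 3. *Slc6a6* encodes the taurine transporter, *Nr1d1* the clock repressor REV-ERB alpha, *Sec22c* a vesicle transport protein and *Coq10b* a coenzyme Q-binding protein of mitochondria. By this ranking the closest member was *Eif4ebp2*, at rank 383 (0.79 and 0.53). With the diet means removed its r was 0.70 and 0.58, beside 0.63 and 0.58 for *Slc6a6* and 0.64 and 0.46 for *Coq10b*. *Sesn3*, which averaged lower in CR, then stood at 0.64 and 0.50. Every other member was then negative in the cornea, the conjunctiva or both.

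*Slc6a6* averaged 5419 ± 1402 (SD, n = 5) in AL and 12487 ± 2608 (n = 5) in CR cornea, and 5312 ± 949 (n = 4) and 15195 ± 3200.4 (n = 5) in the conjunctiva. *Nr1d1* averaged 770.3 ± 335 and 1691 ± 259 in the cornea and 816 ± 281 and 1876 ± 402 in the conjunctiva. Both had CR libraries wholly above AL in each tissue, as *Eef2k* did, and larger ratios of 2.30 and 2.86 for *Slc6a6* and 2.20 and 2.30 for *Nr1d1*. *Coq10b* also had CR libraries wholly above AL in each tissue, at 343 ± 32.0 and 615 ± 53.6 in the cornea and 313 ± 41.9 and 486 ± 56.9 in the conjunctiva, ratios of 1.80 and 1.55. *Fam76a* overlapped between diets in the conjunctiva and *Sec22c* in the cornea. They were picked for likeness to a gene selected on this contrast, so no test of their own change is given. Of these 5 genes, 3 had a promoter window: *Sec22c* and *Coq10b* each held an E-box, *Coq10b* a D-box as well, on the minus strand, and *Nr1d1* none of the motifs in its window.
Sec22c E-box, chr9:121705186-121705215, minus strand: aggtgagactcgCACGTGggcctggggacc
Coq10b E-box, chr1:55052680-55052709, plus strand: ggcggcactggaCACGTGcgtcagcctagc
Coq10b D-box, chr1:55052597-55052626, plus strand: cgtcacgaagaTTACATAAgtggcagactc
The E-box lay 174 bases before the start in *Sec22c* and 78 in *Coq10b*, against 31 in *Eef2k*. Only the core letters are shared between these stretches by construction, and binding was not measured.

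**Figure D5:**
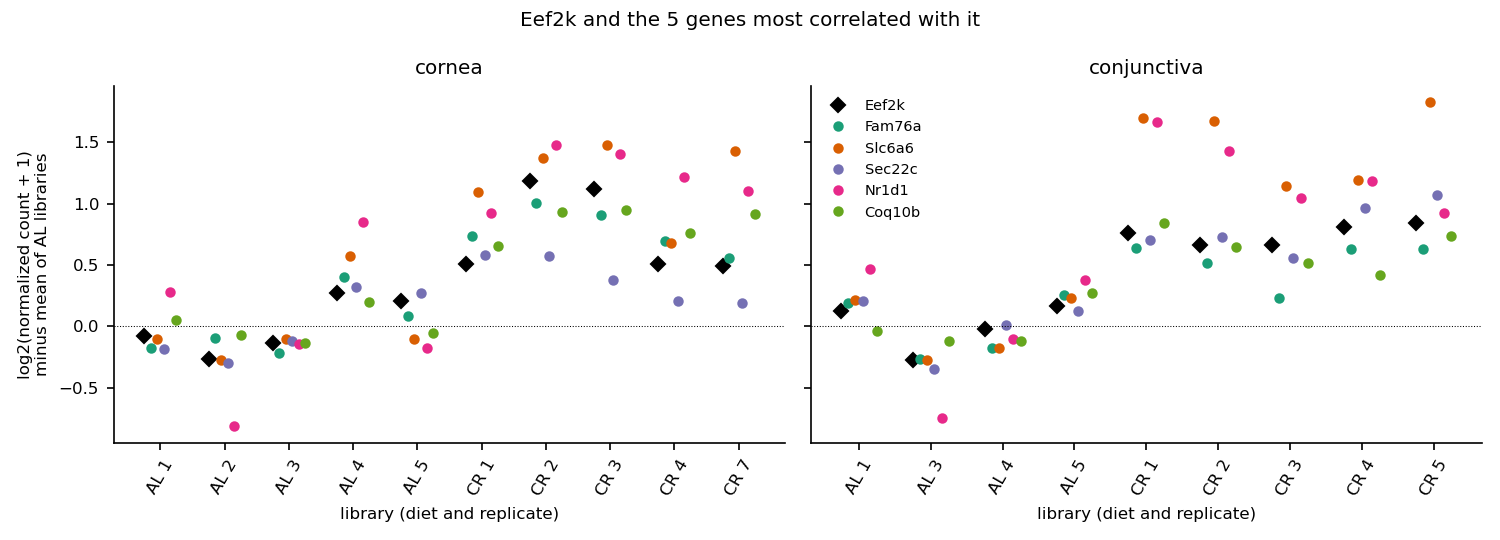
Log2(normalized count + 1) minus the mean of the AL libraries of the tissue (vertical axis) in each library for *Eef2k* (black diamonds) and the 5 genes most correlated with it. In the cornea AL 4 lies above 0 for all 6 genes, and in the conjunctiva AL 3 lies below 0 for all 6.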

How the data were processed

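The authors trimmed single reads with cutadapt, aligned them with STAR, counted reads per gene with HTSeq and normalized them with DESeq2 relative log expression size factors on ROSALIND, each tissue in its own table. Tool versions were not given in the sources used here. The study's methods name the build mm10 and the submitters' processing notes GRCm39. The labels name a stranded mRNA kit and the methods an oligo(dT) kit, so the library type and the use of strand are unsettled. The deposited unit is log2(normalized count + 1). Normalized counts and whole reads were recovered from it (100% within 0.01 of a whole number). Of 24557 rows, 5 with repeated symbols were left out, 483 had no gene ID, and 0 value columns were unmatched.

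Diets were compared within each tissue with limma 3.58.1 (statmod 1.5.0, R 4.3.3) on log2(normalized count + 1), with an intensity trend, robust moderation and Benjamini-Hochberg adjustment over all genes averaging 10 or more normalized counts. Calls needed an adjusted p under 0.05 and a fold change over 1.5. The added 1 shrinks the changes of low genes, whereas libraries at or near 0 can carry a fitted change past the ratio of the means, as for *Sesn2* in the conjunctiva. Tissue differences used Satterthwaite degrees of freedom, and single values exact permutation tests. The members, gene lists and tests were chosen with earlier results of these data known. Named were all members, pathway genes called in either tissue, the 5 pathway genes of smallest p per tissue and the 5 genes most correlated with *Eef2k*. A count model was not used because the unit is log2, and voom on recovered reads stood in as an alternative. The other alternatives were other pseudocounts, filters, scalings, thresholds, array weights, a replicate block, a covariate for the share of genes at 0, a difference per shared title, and each library left out. The procedure was tested on simulated data.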

Additional observations from a re-analysis of the deposited data

Results flagged for a closer look

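In 76 groups of libraries checked over 19 genes, 2 libraries stood apart from the rest of their group by Dixon's criterion, which chance alone meets in about 1 in 20 groups. *Sesn1* held 699 normalized counts in conjunctiva AL 1, where the other 3 AL libraries held 399 to 426. *Tti1* held 225 normalized counts in cornea AL 4, where the other 4 AL libraries held 132 to 147. Cornea AL 4 also had 45.2% of listed genes at 0, the highest share among the AL cornea libraries.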

How the results depend on the processing

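Of 928 values of single genes under alternatives, 919 kept their direction or side of the threshold, 6 lost a call, 3 gained 1 and 0 reversed. A value that did not pass before or after counted as kept even where its sign turned. Most values were of that kind, so these counts do not measure how stable the directions were. The calls lost were all of *Prr5l* in the conjunctiva, 5 to left-out libraries and 1 to the replicate block (1.02, limma adjusted p = 0.182). Those gained were *Ddit4* in the conjunctiva with a covariate for the share of genes at 0, and, with array weights, *Telo2* (-0.89, adjusted p = 0.0305) and *Deptor* (-1.76, adjusted p = 0.0420) in the cornea. Several changes that did not pass turned sign under at least 1 setting, also without passing. Besides values near 0, these were, with the covariate for the share of genes at 0, *Eif4ebp2* (0.37 to -0.014) and *Gatsl2* (-0.17 to 0.18) in the conjunctiva and *Tsc2* (-0.26 to 0.053), *Tti1* (0.27 to -0.14), *Tsc1* (-0.15 to 0.025) and *Deptor* (-1.65 to 0.00062) in the cornea, and *Prr5l* in the cornea without CR 1 (0.23 to -0.19). The background of called genes depended far more on the settings. In the cornea the 150 called genes became 705 with array weights, 62 with that covariate, 99 with voom, and 53 to 536 with 1 library left out (536 without AL 4, 309 without CR 1, 53 without AL 5). In the conjunctiva the 50 became 149 with array weights and 26 to 127 with 1 library left out (127 without CR 3, 26 without CR 2). The 2 genes that differed between tissues became 0 when taken per shared title, and 0 to 7 with 1 library left out. The causes were not tested. Replicate numbers did not pair the libraries: same-numbered AL and CR libraries deviated from their group means with correlations between -0.30 and 0.29 for the cornea and between -0.062 and 0.053 for the conjunctiva. With the number as a replicate block, 46 cornea and 10 conjunctiva genes were called, and *Eef2k* stood at 0.88 and 0.77. Small groups and few reads limit *Sesn2* most. Rises of 1.5-fold were mostly missed in the simulated conjunctiva data, in part because a call needs an estimated change over 1.5-fold.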
